A study of Mus musculus with 5 samples.

Results

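The genes described here are the 8 that encode the ERBB receptor tyrosine kinases and the neuregulin ligands: the receptors Erbb4, Erbb3, Erbb2 and Egfr, and the ligands Nrg1, Nrg2, Nrg3 and Nrg4. They were chosen by symbol and found as 8 of the 32286 gene entries of a single cell RNA sequencing (scRNA-seq) experiment on mouse synovial sarcoma (SyS). The choice of genes, and the questions asked of them (which tumors hold Erbb4 or Nrg1, whether both lie in the same tumor cells, and which other cells hold ligand or receptor), came from the measured values themselves. The levels of the 8 genes by tumor and by cell class are therefore given as a description, without a test.

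All 5 tumors arose in hSS2 mice, which carry human SS18::SSX2, the fusion oncogene of synovial sarcoma, as a conditional allele in the Rosa26 locus. Each was started by injecting TATCre, a recombinase protein that enters cells, into a limb, so that no promoter restricted the fusion to a cell type, and was taken when the animal had become morbid. The labels give the histology of tissue beside each sample: BP (biphasic, with epithelial and spindle cell areas) for 2 tumors, and MP (monophasic, spindle cells), MP+BP, and PD+MP (poorly differentiated and monophasic) for 1 tumor each. Both BP names share a leading number whose meaning the labels do not give, and only BP had an n of 2, so for the other labels histology and individual tumor cannot be told apart. No tumor without the fusion and no normal tissue was part of the series.

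ERBB receptors sit in the cell membrane and pair with each other when a ligand of the epidermal growth factor (EGF) family binds. Neuregulins bind ERBB3 and ERBB4, whereas ERBB2 has no known ligand of its own and serves as a partner, and EGFR answers to EGF, TGFα and related ligands. Activated pairs recruit adaptors such as GRB2 and SHC1 and signal through RAS and ERK, PI3K and AKT, and STAT5. Neuregulin and ERBB signaling is best known from the heart, the breast, and the nerve, where NRG1 on axons instructs the Schwann cells that wrap them.

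A neuregulin binds its receptor through an EGF-like module held together by paired cysteines. The coding stretch of that module is shown for the ligand on which the results turn most, Nrg1, and for Nrg3 and Nrg4, which were found in other cells or other tumors. Each stretch was read 5′ to 3′ from the longest coding transcript of the gene in the GENCODE annotation of GRCm38, is joined from 2 exons on the minus strand, and is written with the 6 cysteine codons in capitals. The stretches span 120 bases at chr8:31837698-31849398 for Nrg1, 117 bases at chr14:38668261-39012054 for Nrg3 and 111 bases at chr9:55242177-55280969 for Nrg4, introns included in the positions.
Nrg1: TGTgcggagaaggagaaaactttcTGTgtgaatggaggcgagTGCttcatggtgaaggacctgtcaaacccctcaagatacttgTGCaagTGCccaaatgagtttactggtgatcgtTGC
Nrg3: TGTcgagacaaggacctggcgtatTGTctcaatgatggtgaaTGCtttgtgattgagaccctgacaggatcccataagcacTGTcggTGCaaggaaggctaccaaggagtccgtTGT
Nrg4: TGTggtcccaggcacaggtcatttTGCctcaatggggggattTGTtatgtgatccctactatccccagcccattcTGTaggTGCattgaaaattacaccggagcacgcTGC

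The droplet libraries counted molecules (unique molecular identifiers, UMIs) near the 3′ end of transcripts, so these stretches themselves were seldom read. The genes differ greatly in length: Nrg3 spans 1104 kb, Erbb4 1076 kb and Nrg1 1069 kb of the genome, but Erbb3 22.1 kb and Erbb2 25.2 kb. Whether UMIs from introns were counted is not given in the sources used here, and for that reason levels were compared between tumors and cell classes for each gene, not between genes. Erbb4 lies at chr1:68032186-69108059 on the minus strand and overlaps the counted gene Gm16076 on that strand, so UMIs in the shared stretch are uncertain. Nrg1 lies at chr8:31814551-32884029, also on the minus strand, and has no counted neighbor overlapping it on that strand.

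The files held 51670 called cells, of which 39559 were kept, with a median of 6339.5 to 8527.5 UMIs per kept cell in the 5 tumors. Any pair of libraries shared 15 to 33 cell barcodes. Clustering gave 31 clusters, and 13 of these, with 23643 cells, were called SyS-like from at least 3 tumor markers such as Sox2, Tle1, Zic1 and Epcam. A further 6 clusters with 7096 cells held mostly tumor markers but did not meet the naming rule, and are given apart as unnamed. An EGFP entry in the gene table, 30.6 to 43.0 CPM (UMIs of the gene scaled to a total of 1000000 UMIs) in SyS-like cells, lay at 0 to 9.01 CPM in stromal, 0 to 1.69 in endothelial-like and 0.629 to 2.57 in macrophage-like cells, the classes used below. The PD+MP tumor stood apart in sex-linked genes: its SyS-like cells had 149 CPM of Uty and 0.171 CPM of Xist, against at most 0.0408 and at least 1496 CPM in the other tumors. Values for PD+MP therefore carry its label, its sex-linked expression and a single animal together, which cannot be told apart.

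Erbb4, the receptor that neuregulins can activate without a partner of another type, was found in tumor cells under every label. CPM here were taken over the summed SyS-like cells of each tumor. Erbb4 was at 713 CPM in BP replicate 1, 572 in BP replicate 2, 1491 in MP, 1057 in MP+BP and only 140 in PD+MP, a 10.7-fold range. The MP tumor was highest and PD+MP lowest, and no 2 neighbors in this order had overlapping 95% Poisson intervals, which cover counting error only. The mean of the BP tumors, 643 ± 99.8 CPM (SD, n = 2), gives the only replicate spread, and the gap from BP to PD+MP or to MP was several times larger than it.

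Nrg1, the neuregulin with the most isoforms, followed another order. It was at 48.1 CPM in BP replicate 1, 35.0 in BP replicate 2, 76.3 in MP and 27.6 in MP+BP, but at 923 CPM in PD+MP. The BP mean was 41.5 ± 9.30 CPM (SD, n = 2), and the lowest and highest tumors differed 33.4-fold. The low value in MP+BP depended on which clusters were counted, as it was at 47.2 CPM with a first version of the cluster naming (BP mean 47.7) and at 46.3 CPM with the unnamed clusters added (BP mean 44.0). PD+MP was thus the only tumor with more Nrg1 than Erbb4 UMIs in its SyS-like cells. It had 659 Nrg1 UMIs for every 100 of Erbb4, where the other 4 tumors had 2.61 to 6.74. These genes may be counted unequally, so the ratio is read only between tumors and cell classes.

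The remaining receptors had orders of their own. Egfr, the EGF receptor, was at 2.60 and 1.25 CPM in the BP tumors, 10.1 in MP, 10.6 in MP+BP and as low as 0.274 in PD+MP. Erbb2, the partner receptor, kept within a 2.63-fold range, from 6.38 CPM in BP replicate 2 over 10.5 in BP replicate 1, 15.2 in MP and 15.3 in PD+MP to 16.8 in MP+BP. For Erbb2 the MP, PD+MP and MP+BP values did not differ beyond counting error. Erbb3, which binds neuregulins and signals mainly through PI3K, was at 12.0 CPM in BP replicate 1 and 17.7 in MP+BP, and at 4.27 in BP replicate 2, 5.47 in MP and 5.19 in PD+MP. The values of BP replicate 2, PD+MP and MP overlapped from each to the next within counting error, and the BP tumors differed from each other, with a mean of 8.12 ± 5.45 CPM (SD, n = 2).

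Nrg2, a ligand for ERBB3 and ERBB4 known mainly from the nervous system, was, like Nrg1, highest in PD+MP. It was at 23.9 CPM there, 13.8 in MP+BP, 11.1 in MP, 5.69 in BP replicate 1 and 4.07 in BP replicate 2. Nrg3, a brain neuregulin that binds ERBB4, was at 19.2 CPM in MP+BP, 5.95 and 3.46 in BP replicates 2 and 1, 5.53 in PD+MP and 0.992 in MP. MP, which had the most Erbb4, therefore had the least Nrg3. Nrg4, an ERBB4 ligand known from brown fat, stayed between 3.14 and 4.09 CPM in 4 tumors, with overlapping counting intervals from each to the next, and was at 1.23 CPM in PD+MP.

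**Figure D1:**
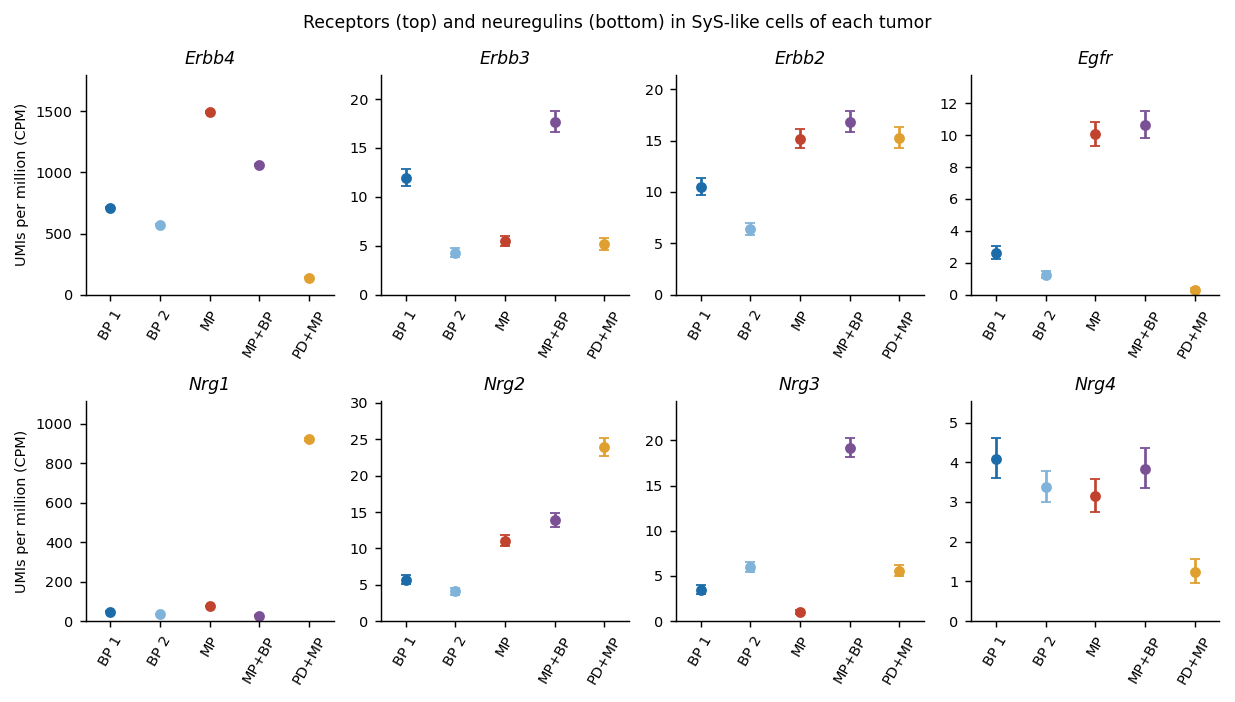
Level of each gene (CPM, linear axis from 0, a scale of its own for each gene) in SyS-like cells of the 5 tumors, with 95% Poisson intervals for counting error. Erbb4 is highest in MP at 1491 CPM and lowest in PD+MP at 140 CPM, and Nrg1 is at 923 CPM in PD+MP and at most 76.3 CPM elsewhere.

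Tumor cells within a sample were not alike. In BP replicate 1 Erbb4 ranged from 253 CPM in the cluster led by En1, Tafa5 and Bex1 to 1302 CPM in the cluster led by Foxq1, Nlgn1 and Grem1, which was almost as high as MP. In BP replicate 2 it ran from 312 to 710 CPM, in MP from 1264 to 1565 CPM, in MP+BP from 756 to 1263 CPM and in PD+MP from 95.0 to 209 CPM. The highest SyS-like cluster of PD+MP thus lay below the lowest SyS-like cluster of every other tumor. This did not extend to the unnamed clusters described below. The clusters were built from the expression of all genes, these included, so these differences are a description.

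Nrg1 in PD+MP reached 1220 CPM in the cluster led by H19, Uty and Igf2, which was shallow, and 1110 CPM in a deeper cluster led by H19, Uty and Kctd16. It was at 632 CPM, its lowest among the SyS-like clusters of that tumor, in the cluster whose leading genes include the mitotic cyclin Ccnb1. In the other 4 tumors no SyS-like cluster went over 77.8 CPM. Nrg2 and Erbb2 were at 37.1 and 21.3 CPM in the PD+MP cluster with most Nrg1. Nrg3 in MP+BP differed between its clusters, from 27.7 CPM in the cluster led by Pcp4 and Syt1 to 0.508 CPM in the cluster led by Trpm3 and Cpvl. That last cluster had 28.6 CPM of Erbb3, the highest among the sums of a tumor and a SyS-like cluster with at least 100 cells, followed by 27.7 CPM in the Foxq1 cluster of BP replicate 1.

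The unnamed clusters with tumor markers extended both ends of these ranges. Erbb4 reached 2585 CPM in the cluster led by Ptprt, Nlgn1 and Rbfox1, whose cells were shallow with a median of 2217 UMIs, and was at 51.5 CPM in the cluster led by H19 and Gap43, found almost wholly in PD+MP. It was at 341 to 900 CPM in the cluster led by Col1a1, Col3a1 and Stmn2, over all 5 tumors. In the cluster led by Mgp and Cartpt it was at 532 to 832 CPM. Both of these clusters include PD+MP cells, with more Erbb4 than any SyS-like cluster of that tumor. Nrg1 was at 56.2 to 504 CPM in the cluster led by Col1a1, Col3a1 and Stmn2 and at 181 to 478 CPM in the cluster led by Mgp and Cartpt. Those clusters also had the most Egfr of any cells with tumor markers, 26.8 to 72.5 CPM and 56.7 to 85.9 CPM, above every SyS-like cluster, where Egfr went no higher than 14.3 CPM. When these 6 clusters were counted with the SyS-like cells, Erbb4 was at 1514 CPM in MP and 132 CPM in PD+MP, and Nrg1 was at 46.3 CPM in MP+BP but 812 CPM in PD+MP.

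**Figure D2:**
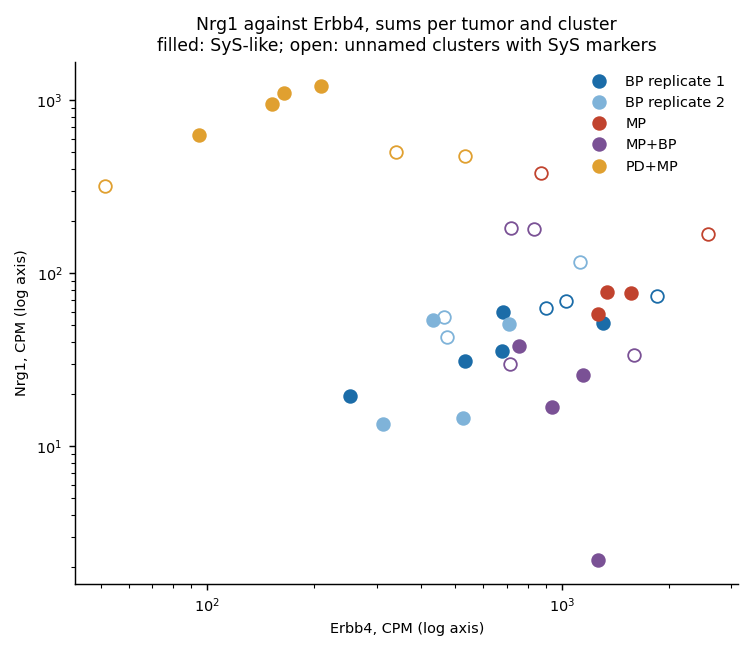
Nrg1 against Erbb4 (CPM, both axes log) in the summed cells of each tumor and cluster with at least 100 cells, filled for SyS-like clusters and open for unnamed clusters with tumor markers. The filled PD+MP points sit at upper left, with Nrg1 from 632 to 1220 CPM and Erbb4 from 95.0 to 209 CPM, and the filled points of the other tumors at lower right. The open PD+MP points spread further. Nrg1 is at 321 CPM and Erbb4 at 51.5 CPM in the cluster led by H19 and Gap43, and Erbb4 is at least 341 CPM in the cluster led by Col1a1.

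Over the 20 sums of a tumor and a SyS-like cluster with at least 100 cells, Erbb4 and Nrg1 had a Pearson r of -0.64 on log2(CPM + 1). With each tumor's own mean removed r was 0.27, and over the 16 sums without PD+MP it was 0.21, so the negative value rested on PD+MP. These sums share tumors and depth and are no independent points. Among 11748 genes with a mean of at least 5 CPM, those most like Erbb4 over the 20 sums were Ptprt (r 0.95), Hivep2 (0.95), Zswim6 (0.95), Adcy8 (0.94) and Nol4 (0.94). Those most like Nrg1 were Greb1l (r 0.94), Colec12 (0.94), Ccdc91 (0.93), Aff2 (0.93) and Sntb1 (0.93). Ptprt encodes a receptor tyrosine phosphatase and Adcy8 an adenylyl cyclase. With the tumor means removed, r was 0.72 to 0.87 for the Erbb4 group and 0.62 to 0.81 for the Nrg1 group.

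Receptor and ligand were then counted in the same cells. Each SyS-like cell was thinned to 3000 UMIs drawn at random, since a deeper cell shows more genes, and shallower cells were left out, which kept 3356, 6008, 4251, 4463 and 3910 cells of BP replicate 1, BP replicate 2, MP, MP+BP and PD+MP. An Erbb4 UMI was present in 65.2% of these cells in BP replicate 1, 62.5% in BP replicate 2, 83.5% in MP and 73.6% in MP+BP, but in only 24.3% in PD+MP. An Nrg1 UMI was present in 9.21%, 6.57%, 12.2%, 5.06% and 76.8% in the same order. In macrophage-like cells the share with an Erbb4 UMI was 0.601% to 4.74%, at a median depth before thinning of 4815 to 7120 UMIs against 9322 to 12848.5 in SyS-like cells. Macrophage-like cells had an Nrg1 UMI in 1.65%, 0.620%, 2.71%, 1.90% and 6.01% in the same order, and the part of free RNA in the SyS-like shares, and so in the cells with both genes, was not tested. Without thinning the Nrg1 share in SyS-like cells was 25.8%, 16.2%, 27.4%, 12.7% and 87.0%.

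Cells with both genes were found in every tumor. BP replicate 1 had 239 of them, 7.12% of its cells with a 95% exact binomial interval of 6.27 to 8.04%. BP replicate 2 had 276 (4.59%, 4.08 to 5.15%). They numbered 461 (10.8%, 9.93 to 11.8%) in MP and 175 (3.92%, 3.37 to 4.53%) in MP+BP. PD+MP had 782, which is 20% of its cells (18.8 to 21.3%). In the 4 tumors other than PD+MP, cells with Erbb4 only made up 57.9 to 72.7% and cells with Nrg1 only 1.14 to 2.09%. In PD+MP this was turned about, with 4.27% Erbb4 only and 56.8% Nrg1 only.

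The number of cells with both was slightly above that expected if each gene fell on cells without regard to the other. The ratio of observed to expected was 1.19 in BP replicate 1, 1.12 in BP replicate 2, 1.06 in MP, and 1.05 and 1.07 in the MP+BP and PD+MP tumors. Computed within clusters and then added up, it was 1.13, 1.04, 1.06, 1.06 and 1.04. After thinning, only the pooled ratio of BP replicate 1 had a Poisson interval above 1 (1.04 to 1.35), and within clusters its interval reached from 0.989 to 1.28. These intervals take the count as free, although it cannot exceed the number of cells with the rarer gene. An interval that includes 1 therefore does not show that the genes were independent. Without thinning, which counts more cells with both, the pooled interval lay above 1 in every tumor but MP, with lower ends of 1.02 to 1.03, and within clusters in MP+BP (1.01 to 1.19) and PD+MP (1.003 to 1.096). The shares fall with the depth chosen, whereas the ratio stayed between 1.02 and 1.13 in every tumor when cells were not thinned, were thinned to 5000 UMIs, were clustered more finely or kept their predicted doublets. Doublets, droplets with more than 1 cell, add cells with both genes, and those predicted were removed.

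**Figure D3:**
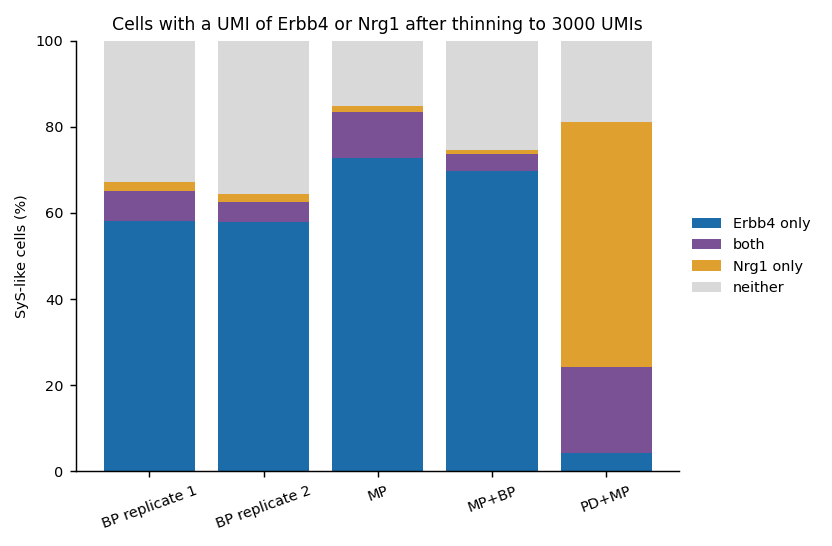
Share of SyS-like cells (%, axis from 0 to 100) with an Erbb4 UMI only, UMIs of both genes, an Nrg1 UMI only or neither, after thinning to 3000 UMIs, in the 5 tumors. The group with both is 3.92 to 10.8% in the 4 tumors other than PD+MP and 20% in PD+MP, where the group with Nrg1 only is the largest.

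Among the named classes other than SyS-like, Egfr was highest in stromal cells. Unnamed cells, mostly with tumor markers, reached 47.3 CPM in MP+BP, above the pericyte-like cells there. Pericyte-like cells, the contractile cells on capillaries, had 52.6 and 64.9 CPM in the BP tumors, 46.5 in MP, 45.8 in MP+BP, and 58.8 in the PD+MP tumor, at least 4 times the SyS-like level in every tumor. After thinning, 9.09 to 17.8% of pericyte-like cells had an Egfr UMI. Fibroblast-like cells were numerous only in PD+MP, with 122 cells, where Egfr was at 285 CPM and 48.2% of thinned cells had a UMI. In the same tumor its SyS-like cells had an Egfr UMI in 0.0256% (0.274 CPM in their sum). The unnamed clusters with tumor markers were uneven there, at 72.5 and 56.7 CPM in the clusters led by Col1a1 and by Mgp, with 47 UMIs each, and 0.245 CPM in the cluster led by H19 and Gap43. Endothelial-like cells were at 0 to 4.23 CPM and macrophage-like cells at 1.88 to 8.11 CPM.

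Erbb4 outside the tumor cells was low in the well populated classes. It was at 5.18 to 19.4 CPM in endothelial-like, 2.20 to 26.3 CPM in macrophage-like and 3.92 to 79.4 CPM in pericyte-like cells, below the SyS-like cells of the same tumor in all 5. In neutrophil-like cells, present with at least 20 cells in 3 tumors, it was at 202, 394 and 1224 CPM, but those cells had few UMIs (median 1887) and also 9.49 to 29.9 CPM of EGFP. The part of tumor RNA in this value was not tested. Erbb2 was at 3.45 to 5.49 CPM in endothelial-like and 4.33 to 12.8 CPM in pericyte-like cells, and at 0.308 to 1.73 CPM in macrophage-like cells. Erbb3 did not pass 3.61 CPM in the endothelial-like, macrophage-like or pericyte-like cells of any tumor.

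Nrg1 in pericyte-like, endothelial-like and macrophage-like cells was highest in PD+MP, the tumor whose SyS-like cells held the most. Fibroblast-like cells of PD+MP had 123 CPM and 13.2% of thinned cells with a UMI. Pericyte-like cells had 54.9 CPM there, from only 38 cells, against 0 to 7.13 CPM in the other tumors. Endothelial-like cells had 19.0 against 0.605 to 2.83 CPM. RNA released by tumor cells would move with the tumor's own level, and its part in these values was not tested. In macrophage-like cells Nrg1 was at 7.84, 3.35, 10.6, 12.7 and 33.8 CPM in the usual order of tumors. For every 100 Erbb4 UMIs, macrophage-like cells had 102, 45.7, 51.4, 48.5 and 1536 Nrg1 UMIs in that order, against 6.74, 6.11, 5.11, 2.61 and 659 in SyS-like cells. Endothelial-like cells had 7.25 to 23.9 in the 4 tumors other than PD+MP and 367 in PD+MP, and stromal cells 0 to 24.4 and 3725. Outside PD+MP these rest on few Nrg1 UMIs, 2 to 16 in endothelial-like and 0 to 19 in stromal cells. In PD+MP the ratios rest on few Erbb4 UMIs, 14 in macrophage-like, 3 in endothelial-like and 4 in stromal cells. Fibroblast-like cells, few in the other tumors, gave 135 of the 149 stromal Nrg1 UMIs of PD+MP, so the stromal ratios compare unlike mixtures.

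Other myeloid classes gave few Nrg1 UMIs, and no order of tumors is drawn from them. In dendritic-like cells, which had at least 20 cells in 4 tumors, Nrg1 was at 23.1 CPM in BP replicate 1, 22.2 in MP, 19.9 in PD+MP and 10.1 in MP+BP. These values rest on 5 to 11 UMIs each, and their Poisson intervals overlap. In neutrophil-like cells it was at 12.7 CPM in BP replicate 1, 0 in BP replicate 2 and 147 CPM in MP, from 4, 0 and 17 UMIs in the shallow cells described above.

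The macrophage clusters differed in Nrg1, though not alike in every tumor. In the cluster led by C1qc, C1qa and C1qb it was at 1.09 CPM in BP replicate 1, 3.11 in BP replicate 2, 1.94 in MP, 1.91 in MP+BP and 13.6 CPM in PD+MP. In the cluster led by the antigen presentation genes H2-Aa and H2-Eb1 it was at 13.9, 1.96, 35.1 and 9.24 CPM in the first 4 of these, so higher than in the C1q cluster in 3 tumors and lower in BP replicate 2. In the cluster led by Pf4 and Spp1 it was at 20.9 CPM in BP replicate 1 and 43.9 CPM in PD+MP, above the C1q cluster in both. These values rest on few UMIs, from 1 to 129 per sum.

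Nrg4 in macrophage-like cells was at 17.1 CPM in PD+MP (109 UMIs, 95% Poisson interval 14.1 to 20.6 CPM), against 5.54, 3.56, 0.858 and 3.47 CPM in BP replicate 1, BP replicate 2, MP and MP+BP. The SyS-like cells of PD+MP had 1.23 CPM, less than their macrophages, and the share of macrophage-like cells with an Nrg4 UMI after thinning was 5.17% there and 0.451 to 1.65% elsewhere. Within PD+MP it was at 26.2 CPM in the Pf4 and Spp1 cluster and 9.34 CPM in the C1q cluster. Nrg4 in endothelial-like cells was even between tumors, from 3.27 to 5.18 CPM. Nrg2 was at 4.40 to 9.17 CPM in pericyte-like cells and at most 1.69 CPM in endothelial-like cells. Nrg3 had no UMI in the pericyte-like cells of any tumor, and no more than 0.281 CPM in endothelial-like or macrophage-like cells.

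**Figure D4:**
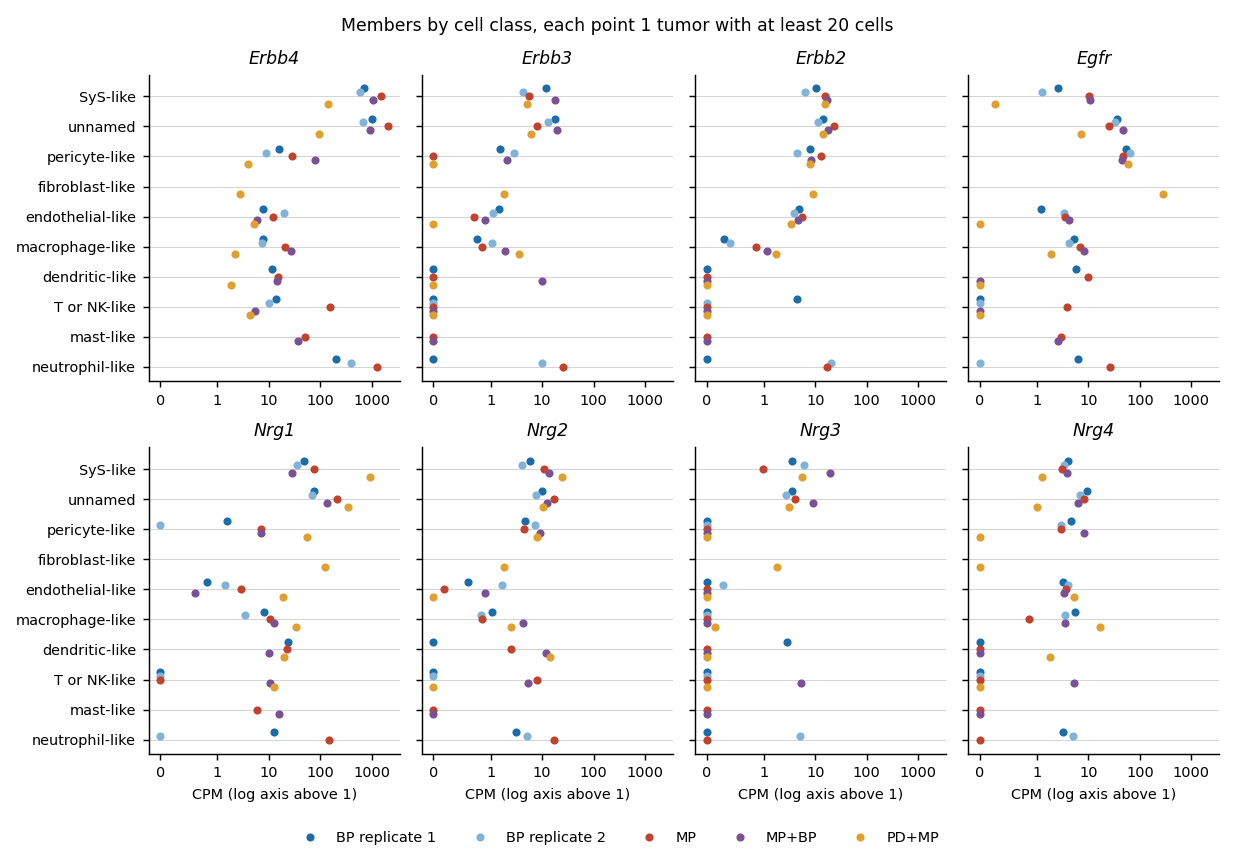
Level of each gene (CPM, linear to 1 and log above) in each cell class, 1 point for each tumor with at least 20 cells of the class. The highest point of Erbb4 is in unnamed cells and that of Nrg3 in SyS-like cells. Unnamed cells are drawn as a whole class, mostly with tumor markers. Neutrophil-like cells of MP, with few UMIs, have 1224 CPM of Erbb4. Egfr is highest in fibroblast-like and pericyte-like cells and reaches 47.3 CPM in unnamed cells. Nrg4 is highest in macrophage-like cells of PD+MP, at 17.1 CPM.

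A division of the tumor cells that used none of the 8 genes allowed a test of them. SyS-like cells with at least 2 UMIs from a list of 10 epithelial genes (among them the adherens junction gene Cdh1, the claudins Cldn4 and Cldn7 and the epithelial regulators Grhl2, Esrp1 and Ovol1) were set against cells with none, after thinning. The 3 tumors with BP in their label had at least 20 such cells, 66 in BP replicate 1, 45 in BP replicate 2 and 166 in MP+BP, and entered the test, while MP with 13 and PD+MP with 12 did not. Counts were summed per tumor and tested with edgeR's quasi-likelihood test, with the tumor as a block. Of 18785 genes tested besides the list, 2.63% were called higher and 1.68% lower at an adjusted p under 0.05. All 8 genes passed the filter on low counts, and 4 were called higher and 1 lower.

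Erbb3 was raised most. It was at 97.5 CPM in cells with epithelial UMIs and 8.93 CPM in cells without in BP replicate 1, at 17.9 and 3.67 CPM in BP replicate 2, and at 115 and 9.56 CPM in MP+BP. It was higher in 3 of 3 tumors, and the log2 fold change was 3.19 (SE 0.23, edgeR adjusted p = 3.4e-11). Leaving out any tumor left it between 3.00 and 3.44. In the tumors too small for the test, Erbb3 was at 88.1 CPM (95% Poisson interval 49.3 to 145) against 4.90 CPM in PD+MP, and at 5.53 against 5.26 CPM in MP, where the first value is a single UMI.

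Nrg1 rose as well, with 77.4 against 46.6 CPM in BP replicate 1, 60.5 against 34.8 CPM in BP replicate 2 and 68.1 against 24.1 CPM in MP+BP. It was higher in 3 of 3 tumors, with log2 fold change 0.94 (SE 0.18) and edgeR adjusted p = 0.00125. Without MP+BP the change was 0.69 with an edgeR adjusted p of 0.0514, past the threshold no longer. Nrg1 in these cells stayed far under the level in PD+MP.

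Erbb4 was at 1483 against 688 CPM in BP replicate 1, 789 against 568 CPM in BP replicate 2 and 1241 against 1049 CPM in MP+BP. It was higher in 3 of 3 tumors, with log2 fold change 0.52 (SE 0.14) and edgeR adjusted p = 0.0334. This call was kept in only 5 of 13 alternatives, over which the log2 fold change ran from 0.20 to 0.72 and the adjusted p from 0.000411 to 0.828 (edgeR or DESeq2). Without BP replicate 1 it was 0.27 with an edgeR adjusted p of 0.643, and without BP replicate 2 it was 0.60 with 0.0518. Erbb2 was at 34.3 against 9.89 CPM in BP replicate 1 and 32.5 against 15.6 CPM in MP+BP, but at 4.12 against 6.20 CPM in BP replicate 2. It was higher in 2 of 3 tumors, with log2 fold change 1.05 (SE 0.29) and edgeR adjusted p = 0.0320, and lost its call without BP replicate 1 (0.61, edgeR adjusted p = 0.612) and without MP+BP (1.13, edgeR adjusted p = 0.0959). DESeq2 gave Erbb4 and Erbb2 adjusted p values of 0.174 and 0.286.

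Nrg3 moved the other way. It was at 2.02 against 3.45 CPM in BP replicate 1, without a UMI against 5.98 CPM in BP replicate 2, and at 5.46 against 19.2 CPM in MP+BP. It was lower in 3 of 3 tumors, with log2 fold change -1.87 (SE 0.45) and edgeR adjusted p = 0.0124. Without MP+BP the edgeR adjusted p was 0.429, and DESeq2 gave 0.167. With cells of at least 1 epithelial UMI the log2 fold change was 0.09. In PD+MP, outside the test, the 12 cells with epithelial UMIs had 106 CPM of Nrg3 (18 UMIs) against 5.19 CPM. Nrg2, Nrg4 and Egfr had log2 fold changes of -0.54, -0.75 and -0.24 (SE 0.38, 0.54 and 0.47), with edgeR adjusted p values of 0.604, 0.605 and 0.908.

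The cells with epithelial UMIs were deeper than those without, with a median of 13512.5 against 12835.5 UMIs in BP replicate 1, 11215 against 10398 in BP replicate 2 and 11240.5 against 9121 in MP+BP. They were also spread otherwise over the clusters: 34.8% of them against 12.9% in BP replicate 1, and 20.5% against 0.435% in MP+BP, lay in the cluster led by Foxq1, but 2.22% against 0% in BP replicate 2. The part of either in the result was not tested. The fit without the tumor block called none of the 8 genes, as spread between tumors was then counted as error.

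**Figure D5:**
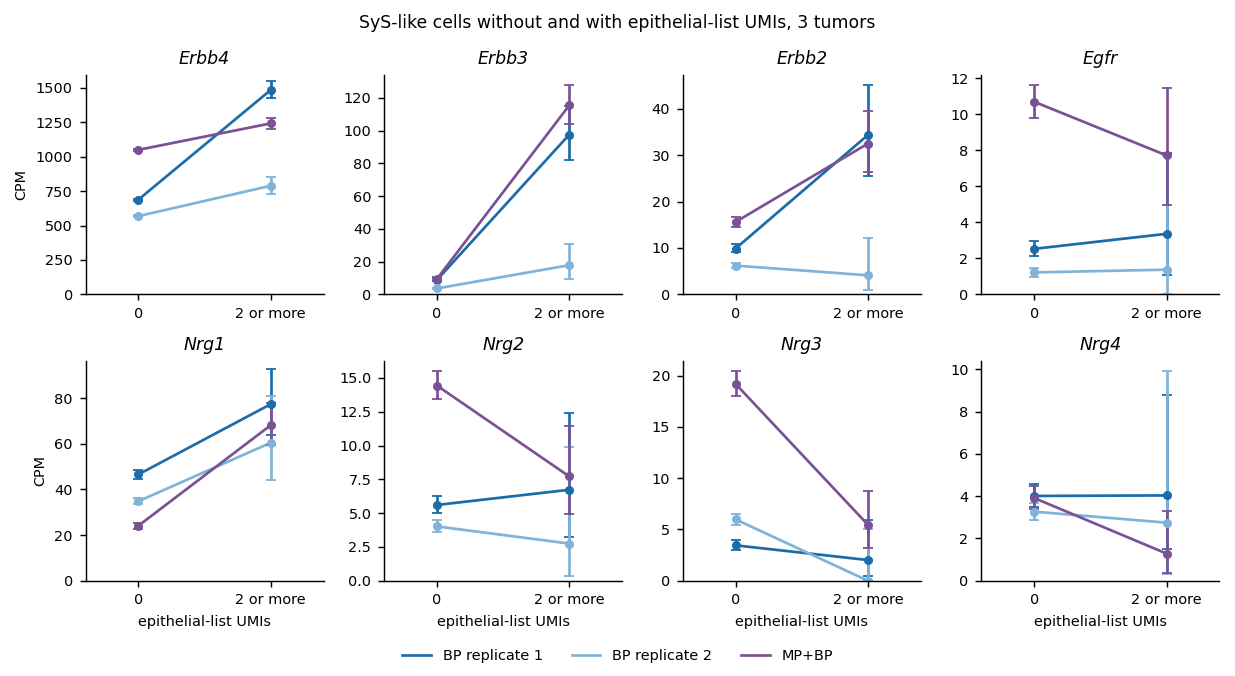
Level of each gene (CPM, linear axis from 0, a scale of its own for each gene) in SyS-like cells with 0 and with 2 or more UMIs of the epithelial list, joined for each of the 3 tumors tested, with 95% Poisson intervals. Erbb3, Nrg1 and Erbb4 are higher and Nrg3 lower with epithelial UMIs in all 3 tumors, and Erbb2 is higher in 2 of them.

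The wider pathway was followed through 55 other genes: ligands of the EGF family, proteases that release ligands, adaptors, and the PI3K, ERK and feedback genes. In the division by epithelial UMIs, 2 of 53 tested were called higher and 1 lower, against the 2.63% and 1.68% of all genes. The adaptor Grb7, which is encoded close to Erbb2 and binds its phosphorylated tail, was at 14.5 ± 9.24 CPM (SD, n = 3) with epithelial UMIs and 0.808 ± 0.583 CPM without, which is log2 fold change 4.11 (SE 0.49) and edgeR adjusted p = 1.0e-06. Hbegf, an EGFR and ERBB4 ligand, was at 49.8 ± 41.4 against 22.9 ± 4.93 CPM (SD, n = 3), with log2 fold change 0.85 (SE 0.24) and edgeR adjusted p = 0.0349. Both were higher in 3 of 3 tumors. Hbegf lost its call with DESeq2, with at least 1500 genes per cell, with the first version of the cluster naming, with the unnamed clusters added, with cells of at least 1 epithelial UMI, without BP replicate 1 and without the tumor block.

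Between tumors with and without BP in the label, edgeR called none of 20402 genes (0% higher, 0% lower) in SyS-like sums of 3 against 2 tumors, and none of the 53 pathway genes tested. At an unadjusted p under 0.05 it had 989 genes higher and 677 lower, and 3 and 3 of the pathway list. The lowest p belonged to Areg, Errfi1 and Gab1 among those higher and Mapk3, Cblb and Lrig3 among those lower. DESeq2 called 378 genes higher and 75 lower, with Areg and Errfi1 as its 2 pathway genes, both higher (DESeq2 adjusted p = 0.0187 and 0.0371). Without the MP tumor edgeR called 235 and 141, with Gab1 (log2 fold change 1.72, edgeR adjusted p = 0.0461) as the only pathway gene. Median log2 fold changes were -0.01 over the list and 0.00 over all genes.

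Tumor cells were set against the other classes of the same tumors for the list as well. Against stromal cells (pericyte-like and fibroblast-like) 4 of 53 pathway genes tested were higher and 11 lower, where 15.8% of 20121 genes were called higher and 12.3% lower. The list had a median log2 fold change of -0.08 and all genes 0.19. Of the 12 feedback and turnover genes, which restrain receptor signaling, 1 was higher and 5 lower. Dusp6, an ERK phosphatase, was at 184 ± 54.2 against 40.8 ± 18.3 CPM (SD, n = 5, log2 fold change 2.04, edgeR adjusted p = 6.3e-05), whereas Spry1, a feedback inhibitor of receptor kinases, was at 22.9 ± 13.7 against 129 ± 40.3 CPM (log2 fold change -2.94, edgeR adjusted p = 0.000240). The adaptor Gab1 fell by 2.89 and the ligand Hbegf by 2.53 on the log2 scale, and the PI3K subunit Pik3cb and the kinase Araf rose by 1.84 and 0.92, each in the same direction in 5 of 5 tumors.

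Against endothelial-like cells 7 of 52 pathway genes tested were higher and 25 lower, where 30.9% of 20101 genes were higher and 22.0% lower. Hbegf was at 21.7 ± 7.29 against 356 ± 124 CPM (SD, n = 5, log2 fold change -4.20, edgeR adjusted p = 2.4e-07). Spry1 and Gab1 were lower too, by log2 fold changes of -3.43 and -2.87. Src and the PI3K subunit Pik3r2 were higher, by log2 fold changes of 2.09 and 1.94, and Grb7 was at 1.10 ± 1.10 against 0.117 ± 0.160 CPM. The list had a median log2 fold change of -0.44 against 0.21 for all genes.

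Against macrophage-like cells 17 of 53 pathway genes tested were higher and 21 lower, where 36.5% of 20023 genes were higher and 24.7% lower. Yap1, a transcriptional coactivator, was at 116 ± 22.8 against 3.15 ± 0.288 CPM (SD, n = 5, log2 fold change 4.62, edgeR adjusted p = 4.8e-09), and Lrig1, which promotes the turnover of ERBB receptors, at 47.9 ± 10.6 against 1.63 ± 0.655 CPM (log2 fold change 4.40). Grb7, at 1.10 ± 1.10 CPM in tumor cells, had no UMI in macrophage-like cells. Grb2, Pik3cb and Gab1 were lower in tumor cells, by log2 fold changes of -2.78, -2.56 and -2.31. With scaling by total counts alone this split changed to 27 higher and 11 lower. The median of all genes then moved from 0.32 to 0.88 on the log2 scale.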

How the data were processed

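The deposited files hold, for each of the 5 tumors, a filtered matrix of raw UMI counts per gene and called cell, which the authors made with Cell Ranger, version 7.2.0 per the file headers, on mm10. No other processing is in these counts. The 8 genes and all lists were chosen with earlier results of these data known.

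Cells with at least 750 genes and at most 25% mitochondrial UMIs were kept, predicted doublets were removed with Scrublet (8488, 666 and 2957 cells left out), and the rest were clustered with scanpy 1.11.5 and leidenalg 0.10.2 on 30 principal components of 3000 variable genes (Pearson residuals, 20 neighbors, resolution 1). A cluster was named from at least 3 markers of a class. The ranking of leading genes used in naming was changed after a first version had left clear clusters unnamed, and that version was kept as an alternative. Cell types therefore come from rebuilt names.

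UMI counts were summed per tumor and class (at least 20 cells). SyS-like sums were set against stromal, endothelial-like and macrophage-like sums, BP labels against others, and cells with epithelial UMIs against cells without, using edgeR 4.0.16 (TMM, filterByExpr, quasi-likelihood test, two-sided, Benjamini-Hochberg adjustment over all genes tested, threshold 0.05) in R 4.3.3. Both sums of a pair come from the same tumor and so from the same animal, hence tumor was a block. For edgeR, SE is the size of the log2 fold change divided by the square root of the test's F statistic. The script was tested on simulated data. DESeq2 1.42.0, total-count scaling, no filter on low counts, doublets kept, at least 1500 genes per cell, no block and leaving out each tumor were alternatives. Named besides the 8 genes were up to 3 pathway genes each way per comparison, called and moved alike in every tumor, and the 5 genes most like Erbb4 and Nrg1. The genes called by DESeq2 between labels and those at an unadjusted p under 0.05 there were named after their values were seen. The values of 1 pathway gene are not reported here. SyS-like sums held 58416872 to 84738226 UMIs. Nothing says the tumors marked BP came from separate animals. The p-values between labels measure the spread between these samples. Those with tumor as a block measure the spread of the differences within these tumors. Gene IDs were matched to the GENCODE annotation of GRCm38 for 32235 of 32286 entries.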

Additional observations from a re-analysis of the deposited data

Results flagged for a closer look

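With cells of at least 1 epithelial UMI, Erbb2 was higher than in cells without in every tumor with BP in its label, by 5.58 CPM in BP replicate 1, 2.15 in BP replicate 2 and 7.25 in MP+BP, and its difference was -0.11 CPM in MP and -0.43 in PD+MP. The opposite signs brought this gene to notice. The difference between the labels was not tested, and the values in MP and PD+MP are within counting error of 0. In BP replicate 2 the Poisson intervals of both sums overlapped as well. With at least 2 epithelial UMIs its sign was the other way, at 4.12 against 6.20 CPM.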

How the results depend on the processing

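The order of the 4 labels in Erbb4 and the excess of Nrg1 in PD+MP held under every alternative tried. With doublets kept, Erbb4 was at 750.1 CPM on average in BP and 122 in PD+MP, and Nrg1 at 30.5 in MP+BP and 801 in PD+MP. With at least 1500 genes per cell, Erbb4 was at 1513 in MP and 1080.2 in MP+BP, and Nrg1 at 78.7 and 29.1. As a mean over cells, Erbb4 was at 1339 in MP, 883 in MP+BP and down to 143 in PD+MP, and Nrg1 at 65.2, 22.4 and 948. With the first version of the naming, chosen after seeing the data like the next, Erbb4 was at 1018 in MP+BP and 148 in PD+MP, and Nrg1 at 79.2, 47.2 and 913. With the unnamed tumor-marker clusters added, Erbb4 was at 1514 in MP, 1035 in MP+BP, and 132 in the PD+MP tumor, and Nrg1 at 81.6, 46.3 and 812. Scaling by total counts called 4778 genes higher against stroma, with 7 pathway genes, then 14 pathway genes higher against endothelial-like cells, 27 higher and 11 lower against macrophage-like cells, and 186 genes lower with epithelial UMIs. Between labels, DESeq2 called 378 genes higher and 75 lower, with 2 pathway genes higher. For the epithelial division DESeq2 called 98 genes lower, with 1 pathway gene higher and 0 lower, and with no filter there were 4 pathway genes higher. At least 1500 genes per cell, the first naming, and the added clusters each left 1 pathway gene higher. Without the replicate block 0 genes were called either way, 0 of them pathway genes. The block changed no other count by over 1.5 times. Cells with at least 1 epithelial UMI gave 231 genes higher, with 1 pathway gene higher and 0 lower, and those with at least 3 gave 669 lower. Reversed signs were those of Egfr, never called (log2 fold change 0.24 with 1500 genes, 0.11 with the first naming, 0.32 with the added clusters, 0.0152 with at least 1 UMI, 0.0287 with at least 3), Nrg3 (0.0941) and Nrg4 (0.25) with at least 1 UMI. Leaving out each tumor gave -0.50 to 0.29 for Egfr, 1929 to 3584 genes higher and 1832 to 2837 lower against stroma with 3 to 6 pathway genes higher and 9 to 14 lower, 0 to 235 higher and 0 to 141 lower between labels with 0 to 1 pathway genes higher, and 294 to 615 higher and 132 to 413 lower with epithelial UMIs, with 1 to 3 and 0 to 1 pathway genes. In these fits a lone tumor is assumed to vary like the others. With epithelial UMIs, Erbb3 kept its call in 12 of 13 alternatives (all but no block), Nrg1 in 10, Nrg3 in 9, Erbb2 in 8 and Erbb4 in 5.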
